A study of Mus musculus with 18 samples.

Results

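The genes *Zfp42*, *Tbx3*, *Tfcp2l1*, *Tcl1* and *Prdm14* mark naive pluripotency in mouse embryonic stem cells (mESCs), and *Zfp42* encodes Rex1, the gene behind the reporter of this study. They were taken from the deposited expression table by gene symbol, 5 of its 24369 rows, and not by a cutoff on their values. Earlier results of these data were known when they were chosen. All 18 libraries were made from E14 mESCs that carry Cas9 at one *Rosa26* allele and a destabilised GFP at one *Rex1* allele (Rex1GFPd2-Cas9). 12 libraries follow wild-type cells before differentiation (day 0) and on days 1, 2 and 3, with 3 libraries per day. The other 6 come from GFP+ wild-type, *Nprl2*-/- and *Tsc2*-/- cells, with 2 libraries per genotype, sorted on the *Rex1* reporter before RNA isolation. *Nprl2* encodes a subunit of Gator1 and *Tsc2* a subunit of the Tsc complex, and both complexes restrain the growth kinase mTORC1. KO lines were picked as colonies in which a pair of gRNAs had deleted an exon, and the number of clones behind the libraries is not given in the sources used here. Serum and LIF on feeder cells was the maintenance culture. A medium with LIF and inhibitors of MEK and Gsk3, on gelatin, was used where indicated. A CRISPR screen of the study for exit from naive pluripotency kept cells in that medium before differentiation. For differentiation in general, the methods describe an NDiff227 medium without LIF or inhibitors, and assays that began from GFP+ cells sorted out of serum and LIF. They do not say which culture the time-course libraries started from, or whether these were made in this way. Neither the labels nor the methods say whether libraries of a group came from separate cultures, so p values measure the spread between these libraries, which may be technical.

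In the naive state, signals from LIF through Stat3 and from Wnt through Gsk3 and the repressor Tcf7l1 hold a network of transcription factors in place, and cells that leave it pass through a formative stage. Zfp42 is a zinc finger protein that arose as a retroposed copy of Yy1, and is used as a reporter since it is lost on exit from the naive state. Tbx3 is a T-box factor and Tfcp2l1 a factor of the CP2 family that LIF and Wnt signals both reach. Tcl1 is no transcription factor, and binds and enhances the kinase Akt. Prdm14 works with Cbfa2t2 and keeps FGF receptor signalling and the de novo DNA methyltransferases low.

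The total of estimated counts was 12503005 to 15305054 per library in the time course and 8610357 to 13780861 in GFP+ cells, so that 3 counts, the most that a count of 0 allows, stood for 0.196 to 0.348 CPM, the estimated count scaled to library size. Intervals and limits of this kind cover counting error only. Over the 15 pairs of libraries within a group, chi-square per gene was between 1.82 and 9.06, where sampling noise alone gives 1. *Nprl2* was at 5.96 and 6.50 CPM in the *Nprl2* KO libraries against 11.7 and 12.6 in wild-type, and *Tsc2* was at 63.7 and 67.3 CPM in *Tsc2* KO against 152.3 and 155.5. All 7 markers of mESCs were detected in every group. Their sum fell from 7061 to 7264 TPM on day 0 to a range of 2440 to 2872 TPM on day 3. In GFP+ cells it was between 5815 and 7557 TPM. All 5 genes passed edgeR's low-count filter, applied over all libraries of an experiment, in both experiments. Every test below is the quasi-likelihood test of edgeR, with p values adjusted by the Benjamini-Hochberg method over 14382 genes of the time course or 13725 genes of GFP+ cells. On day 3 against day 0, 5 of the 7 mESC markers were called lower (35.9% of all genes). The other 2, *Lin28a* and *Utf1*, were called higher (5035 of the 14382 genes).

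*Zfp42* lies on chromosome 8 (43295067 to 43307009, mm10), *Tbx3* on chromosome 5 (119670534 to 119684724), *Tcl1* on chromosome 12 (105216753 to 105222737), and *Tfcp2l1* (118627923 to 118685168) and *Prdm14* (13113428 to 13127163) on chromosome 1. The RefSeq promoter table of GRCm38.p6, the assembly that mm10 names, matched 3 of the 5 genes by symbol. *Tbx3* and *Prdm14* had no entry. The 250 bases before the start that this table gives for the other three are shown because these genes shared a fall by day 1. For *Tfcp2l1* that start lies inside the span given above, so the end of its window overlaps the span. Capitals mark the letters searched on both strands, which were TTCNNNGAA (Stat), CTTTGAT and CTTTGAA (Tcf/Lef), CAAGGTCA (Esrrb), ATGCAAAT (the octamer of Pou5f1), CCACCC (Klf) and CCATNTT (Yy1).
*Zfp42*, chr8:43307010-43307259, minus strand: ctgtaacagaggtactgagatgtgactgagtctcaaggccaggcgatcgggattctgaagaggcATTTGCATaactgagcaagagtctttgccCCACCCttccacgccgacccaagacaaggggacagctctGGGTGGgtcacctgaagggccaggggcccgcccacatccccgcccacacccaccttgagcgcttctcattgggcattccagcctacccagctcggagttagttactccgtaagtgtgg
*Tfcp2l1*, chr1:118627695-118627944, plus strand: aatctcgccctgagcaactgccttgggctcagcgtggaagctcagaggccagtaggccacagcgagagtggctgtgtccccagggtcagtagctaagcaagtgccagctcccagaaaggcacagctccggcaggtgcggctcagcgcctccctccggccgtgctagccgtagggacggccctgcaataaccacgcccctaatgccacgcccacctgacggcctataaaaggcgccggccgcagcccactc
*Tcl1*, chr12:105222738-105222987, minus strand: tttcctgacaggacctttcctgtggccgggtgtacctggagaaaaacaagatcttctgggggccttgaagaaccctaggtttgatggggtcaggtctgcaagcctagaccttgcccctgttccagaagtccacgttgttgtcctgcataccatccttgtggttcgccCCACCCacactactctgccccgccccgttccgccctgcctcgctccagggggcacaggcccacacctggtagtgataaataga

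The *Zfp42* window held 1 octamer, read on its reverse strand and starting 186 bases before the start, and 2 copies of CCACCC, 157 and 118 bases before it. *Tcl1* held 1 copy of CCACCC, 83 bases before the start, and *Tfcp2l1* held none of the 7 motifs. Of 32851 promoter windows of this length, 1.60% held the octamer and 28.1% CCACCC. The shares were 7.02% for TTCNNNGAA, 3.21% for CTTTGAT, 4.46% for CTTTGAA, 1.33% for CAAGGTCA and 12.4% for CCATNTT. A match is a description of letters and no evidence of binding.

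Before differentiation the 5 genes differed widely in level. On the TPM scale, which accounts for transcript length, *Zfp42* was at 726, 795 and 804 TPM, the highest of the 5. *Tfcp2l1* followed at 146, 173 and 211 TPM. *Tbx3* (108, 115 and 122 TPM) and *Tcl1* (92.1, 109 and 131 TPM) came next and overlapped. *Prdm14* was lowest at 34.1, 34.2 and 35.2 TPM. In GFP+ wild-type cells the order was *Zfp42* (602 and 580 TPM), *Tcl1* (43.0 and 36.6 TPM), *Tfcp2l1* (30.9 and 41.0 TPM), *Tbx3* (26.8 and 27.0 TPM) and *Prdm14* (10.7 and 7.82 TPM). The ranges of *Tcl1* and *Tfcp2l1* overlapped there, as they did in *Nprl2* KO. Both experiments were fitted apart, and the culture before day 0 is not stated, so their levels are set side by side without a test.

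**Figure D1:**
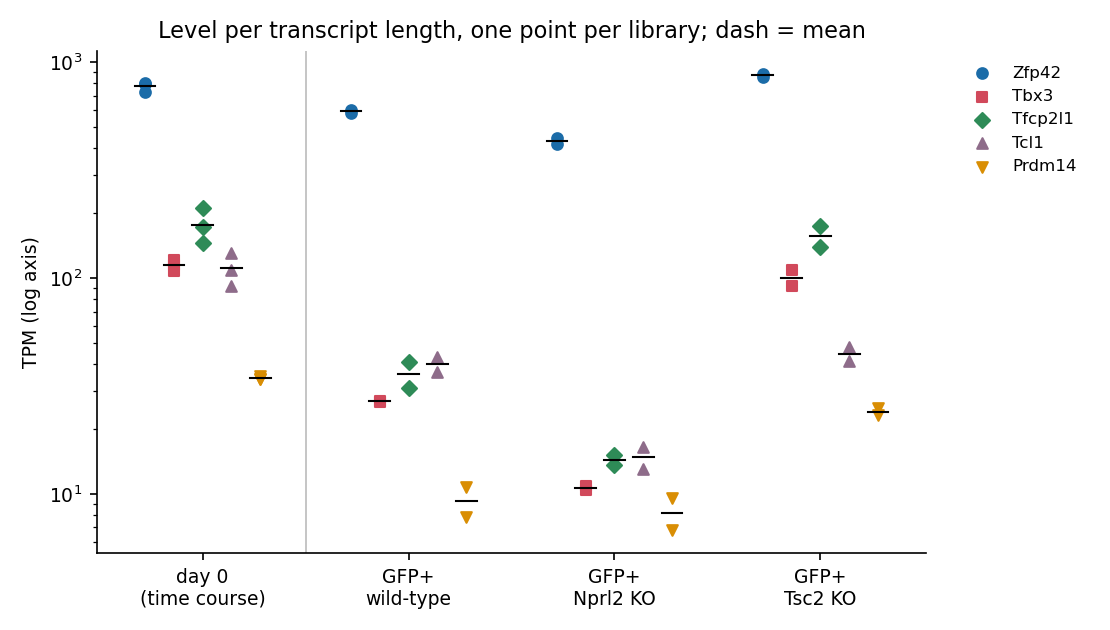
TPM (log axis) of the 5 genes in each library of day 0 and of the 3 GFP+ genotypes, with the mean as a dash; the vertical line separates the time course from the GFP+ libraries. *Zfp42* is the highest gene and *Prdm14* the lowest in all 4 groups, and *Tfcp2l1* and *Tbx3* in *Tsc2* KO are near 156 and 101 TPM.

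The time course asked how the naive genes behave as cells differentiate. All 5 genes fell from day 0 to day 1, when 30.8% of all genes tested were called lower. All 5 were called lower again from day 1 to day 2 (29.6% of all genes called lower). For *Prdm14* this second call rests on the fit that includes day 0, where it was high. With days 1 and 2 fitted alone it did not pass the low-count filter and was not tested. From day 2 to day 3, 1 of the 5, *Zfp42*, was called lower, as were 15.6% of all genes. Against day 0, all 5 were lower on day 2 (32.4% of all genes called lower) and on day 3 (35.9%). In bulk RNA, fewer cells with a transcript and less transcript per cell cannot be told apart.

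*Zfp42* declined in steps. It stood at 671, 738 and 753 CPM on day 0, at 142, 148 and 170 CPM on day 1, at 19.99, 23.3 and 17.7 CPM on day 2 and at 11.1, 12.8 and 9.64 CPM on day 3. The ranges of successive days did not overlap. The log2 fold change was -2.23 from day 0 to day 1 (SE 0.09, adjusted p = 6.2e-13), -2.91 from day 1 to day 2 (SE 0.10, adjusted p = 3.7e-13) and -0.86 from day 2 to day 3 (SE 0.12, adjusted p = 7.6e-05). On day 1, 21.3% ± 2.06 (SD, n = 3) of its day 0 level was left, and on day 3 1.55% ± 0.220 (SD, n = 3).

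*Tbx3* lost nearly all of its level within the first day. It stood at 273, 292 and 314 CPM on day 0 and at 3.87, 3.19 and 5.14 CPM on day 1, or 1.39% ± 0.337 (SD, n = 3) of day 0. The log2 fold change was -6.18 (SE 0.13, adjusted p = 4.4e-17). On day 2 it was at 1.92, 1.14 and 2.34 CPM (log2 fold change from day 1 -1.17, SE 0.23, adjusted p = 0.00024). Day 3, at 1.63, 1.45 and 2.03 CPM, overlapped day 2 (log2 fold change -0.08, SE 0.27, adjusted p = 0.86), and its sign turned without the third library of day 2 (0.17) or the second of day 3 (0.04). The 9 feeder fibroblast markers, a cell type that can also express *Tbx3*, summed to 11.1 to 18.6 TPM on day 0 and 40.2 to 46.4 TPM on day 3. Most of that rise was *Thy1* (means of 4.38 and 30.1 TPM). Of the 8 markers tested on day 3 against day 0, 4 were called higher and 3, *Col1a1*, *Col3a1* and *Postn*, lower. Their part in the residual *Tbx3* level was not tested.

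*Tfcp2l1* followed the same course from a level that varied more between libraries, at 887, 752 and 1101 CPM on day 0. It was at 31.0, 31.5 and 38.3 CPM on day 1 (log2 fold change -4.76, SE 0.14, adjusted p = 9.5e-12) and at 9.67, 12.0035 and 11.5 CPM on day 2 (log2 fold change from day 1 -1.60, SE 0.16, adjusted p = 2.6e-06). The 3 libraries of day 3, at 9.64, 8.32 and 9.04 CPM, all lay below those of day 2, and the difference did not pass the test (log2 fold change -0.30, SE 0.19, adjusted p = 0.27). On day 3, 0.986% ± 0.0721 (SD, n = 3) of the day 0 level remained.

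*Tcl1*, the Akt cofactor, and *Prdm14*, the chromatin regulator, went to the limit of detection. *Tcl1* was at 74.7, 90.8 and 64.1 CPM on day 0 and at 1.49, 2.66 and 3.10 CPM on day 1 (log2 fold change -4.99, SE 0.24, adjusted p = 5.4e-10). After rounding it had 5, 0 and 6 counts on day 2 and 2, 0 and 0 counts on day 3. Summed over libraries and scaled to their totals, the 2 counts of day 3 were 0.0641% of the day 0 level (exact 95% interval 0.00776 to 0.232).

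*Prdm14* was at 46.6, 46.7 and 48.6 CPM on day 0 and at 0.745, 0.836 and 0.816 CPM on day 1, which were 10 or 11 counts per library. On the log2 scale it fell by 5.87 (SE 0.17, adjusted p = 1.5e-15). Only 3 counts were seen on day 2 (0, 2 and 1) and 1 on day 3 (0, 1 and 0). The count of day 3 was 0.0525% of the day 0 level (exact 95% interval 0.00133 to 0.293). From day 1 to day 2 the tests gave a log2 fold change of -3.03 for *Tcl1* (SE 0.58, adjusted p = 0.00047) and -3.21 for *Prdm14* (SE 0.54, adjusted p = 4.8e-05), and from day 2 to day 3 neither passed (adjusted p = 0.20 and 0.41). For *Prdm14* a change between days 2 and 3 was not detectable at this depth, since the interval of the day 3 to day 2 ratio was 0.599% to 392%. For *Tcl1* the interval of the summed counts, 1.85% to 78.6%, lay below 100% on counting error alone, while the test across libraries did not pass.

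**Figure D2:**
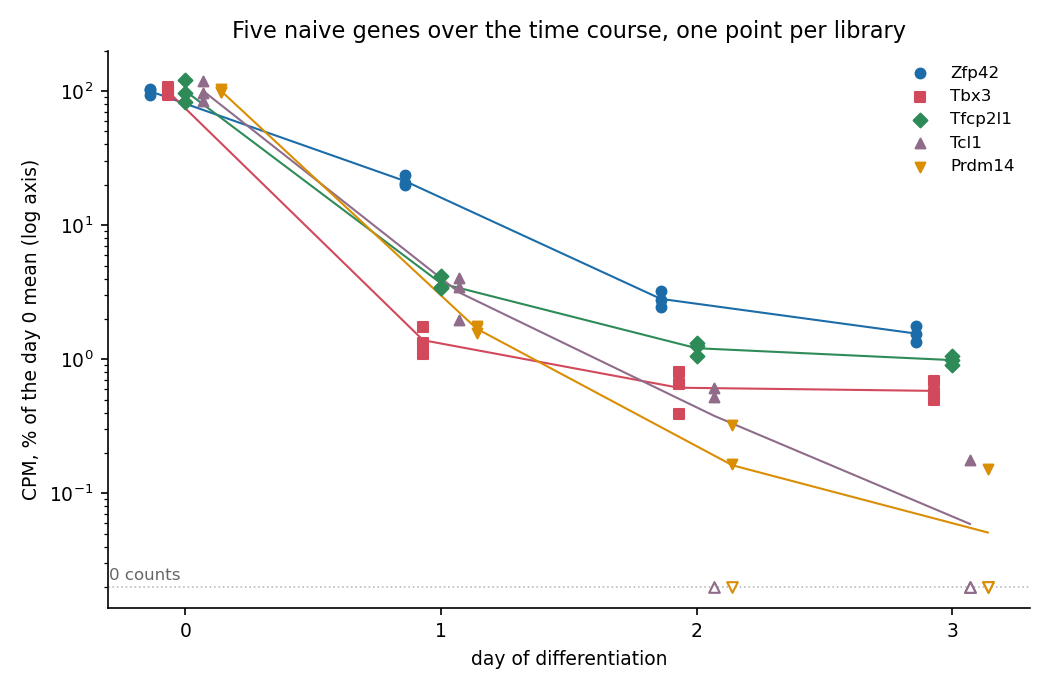
CPM of each time-course library as a percent of that gene's day 0 mean (log axis) against the day, with a line through the group means; open symbols on the dotted line are libraries with 0 counts, drawn there because a log axis has no 0, and on day 3 each stands for both such libraries. *Zfp42* keeps 21.3% on day 1, and the other 4 genes 1.39% to 3.68%.

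On day 1 a larger part of the day 0 level was left for *Zfp42* than for the other 4 genes. Its ratio to each of them, taken within a library on the log2 scale, was higher in all 3 libraries of day 1 than in any of day 0. The rise was 3.96 against *Tbx3*, 2.52 against *Tfcp2l1*, 2.80 against *Tcl1* and 3.66 against *Prdm14*. For each of these 4 ratios an exact two-sided permutation test gave p = 0.1, which is the smallest value that 3 against 3 libraries allow, and 0.1 after adjustment, so none could reach 0.05. Between days 1 and 2, *Zfp42* had a log2 fold change of -2.91, between those of *Tbx3* (-1.17) and *Tfcp2l1* (-1.60) and those of *Tcl1* (-3.03) and *Prdm14* (-3.21). These differences between genes were not tested.

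By the size of the day 1 fall, 3.12% of all genes tested had a lower log2 fold change than *Zfp42*, 0.348% than *Tfcp2l1*, 0.271% than *Tcl1*, 0.139% than *Prdm14* and 0.0973% than *Tbx3*. Likeness of course was measured as the root-mean-square difference of log2(CPM + 0.5), each gene centred on its own mean over the 12 libraries, among 12316 genes. For *Tfcp2l1* the nearest gene was *Prdm14* (0.25), then *Tcl1* (0.44) and *Klf4* (0.44), and for *Tbx3* they were *Prdm14* (0.42), *Klf4* (0.48) and *Tfcp2l1* (0.53). *Tcl1* was nearest to *Tfcp2l1* (0.44), *Prdm14* (0.53) and *Jam2* (0.57). *Zfp42* stood apart from the other 4, at 0.94 to 1.42, and its nearest genes were *Mylpf* (0.18), *Calcoco2* (0.18) and *Mymx* (0.19). All these genes share the same libraries and the fall after day 0. The added 0.5 holds *Tcl1* and *Prdm14* near the floor on days 2 and 3, so their distances understate how far they fell. Against day 0, the fitted log2 fold change of *Tfcp2l1* on day 3 was -6.66, and *Tcl1* and *Prdm14* were then at 2 counts and 1 count in all.

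Other naive genes showed the same direction with more variety. Of 16 such genes tested on day 1, 13 were called lower (30.8% of all genes), 1 higher (30.1% of all genes) and 2 not called. Their median log2 fold change was -2.54 against 0.00065 over all genes tested. *Nanog* (-5.15) and *Klf4* (-5.42), factors of the naive network, fell, and *Gbx2*, a homeobox gene downstream of Stat3, rose (1.27). All 10 formative genes were called higher on day 1 (30.1% of all genes called higher), with a median of 3.84. Among them *Fgf5*, the classical marker of the stage, rose by 7.18 on the log2 scale (SE 0.20, adjusted p = 2.3e-15). Of the 10 genes of the LIF and Wnt inputs, 8 were lower (30.8% of all genes) and 1 higher (30.1% of all genes) on day 1. The median of the list was -0.64. *Stat3* fell by 2.46 on the log2 scale and *Socs3*, its feedback inhibitor and target, fell by 4.92.

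Of 16 partners and relatives of the 5 genes, 10 were tested on day 1. Of these, 2 were lower (30.8% of all genes), 2 higher (30.1% of all genes) and 6 not called, with a median of -0.13, so the shares were not far from those of all genes. *Yy1*, from which *Zfp42* derives, rose by 0.33 on the log2 scale (SE 0.07, adjusted p = 0.00026). *Cbfa2t2*, the partner of Prdm14, was not called (log2 fold change -0.11, SE 0.06, adjusted p = 0.14). *Prdm1*, a relative of *Prdm14* and a germ cell gene, fell by 1.44. *Tbx2* and the 5 *Tcl1b* genes, paralogs next to *Tcl1*, were too low to be tested in either experiment. Of 6 genes known as targets of Prdm14, 5 were higher on day 1 (30.1% of all genes), with a median of 1.65. The other, *Fgfr1* (0.09, adjusted p = 0.24), was not called. The largest were *Dnmt3a* (4.21) and *Dnmt3b* (3.19). Both, and *Dnmt3l* (1.01), also belong to the formative list, so this count partly repeats that of the formative genes.

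The GFP+ comparisons asked how loss of each mTORC1 regulator alters the naive genes in cells that still express the reporter. In *Nprl2* KO cells 4 of the 5 genes were called lower than in wild-type, where 3.66% of all genes were called lower. In *Tsc2* KO cells 4 of the 5 were called higher, where 14.9% of all genes were. Compared with each other, *Tsc2* KO had more of all 5 than *Nprl2* KO (17.5% of all genes called higher). The comparisons with wild-type share its 2 libraries. For *Zfp42* the sort had acted on a reporter in one of its own alleles, so the gate bears on its level in every genotype.

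**Figure D3:**
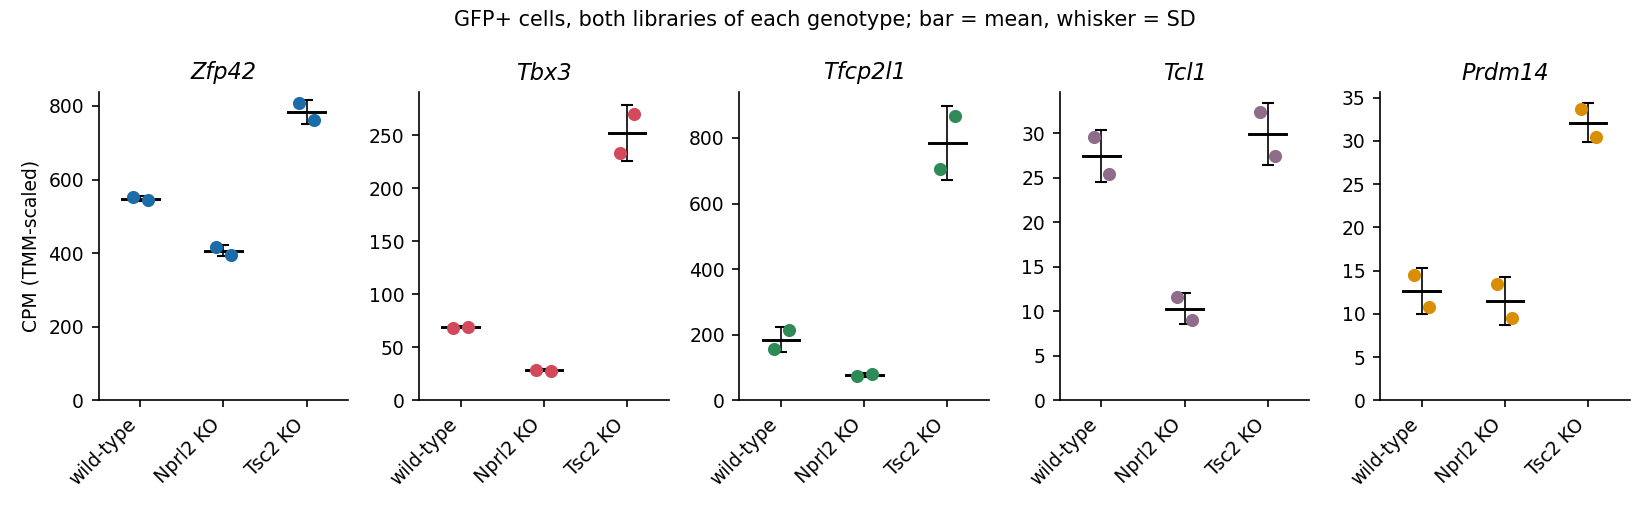
CPM of each GFP+ library (points), with the mean and SD of the 2 libraries of a genotype, on linear axes from 0. *Tsc2* KO lies above *Nprl2* KO for every gene, *Tcl1* in *Tsc2* KO overlaps wild-type, and *Prdm14* in *Nprl2* KO overlaps wild-type.

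*Zfp42* moved least among the called genes. It was at 553 and 543 CPM in wild-type, at 417 and 395 CPM in *Nprl2* KO and at 807 and 761 CPM in *Tsc2* KO, with no overlap of genotypes. The log2 fold change was -0.43 in *Nprl2* KO (SE 0.06, adjusted p = 0.0017) and 0.52 in *Tsc2* KO (SE 0.06, adjusted p = 7.8e-05), a 1.35-fold fall and a 1.43-fold rise. *Tsc2* KO exceeded *Nprl2* KO by 0.95 (SE 0.06, adjusted p = 5.1e-07).

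*Tbx3* changed strongly in both directions. It was at 68.4 and 69.6 CPM in wild-type, at 29.0 and 27.7 CPM in *Nprl2* KO and at 233 and 271 CPM in *Tsc2* KO. The log2 fold change was -1.28 in *Nprl2* KO (SE 0.09, adjusted p = 2.9e-05) and 1.87 in *Tsc2* KO (SE 0.08, adjusted p = 7.2e-08). Between the KOs it was 3.15 (SE 0.09, adjusted p = 7.9e-10), an 8.89-fold difference. The 9 feeder fibroblast markers summed to 159 and 112 TPM in wild-type, 121 and 118 TPM in *Nprl2* KO and 141 and 40.8 TPM in *Tsc2* KO. None of the 7 markers tested was called in either KO, and their part in the *Tbx3* changes was not tested. Without the second *Tsc2* KO library, which had the lowest sum, the log2 fold change against wild-type was 1.76, and without the first it was 1.97.

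*Tfcp2l1* was lower in *Nprl2* KO and higher in *Tsc2* KO. It was at 157 and 213 CPM in wild-type, at 72.8 and 80.5 CPM in *Nprl2* KO and at 706 and 866 CPM in *Tsc2* KO. The log2 fold change was 2.09 in *Tsc2* KO (SE 0.18, adjusted p = 0.00080) and 3.36 between the KOs (SE 0.19, adjusted p = 0.00013). In *Nprl2* KO it was -1.27 (SE 0.18, adjusted p = 0.021), and this call was lost without the first *Nprl2* KO library (-1.21, adjusted p = 0.14) or without the second (-1.34, adjusted p = 0.16).

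*Tcl1* fell in *Nprl2* KO and was not called in *Tsc2* KO. It was at 29.5 and 25.4 CPM in wild-type, at 11.5 and 9.05 CPM in *Nprl2* KO and at 32.4 and 27.5 CPM in *Tsc2* KO. The log2 fold change was -1.43 in *Nprl2* KO (SE 0.16, adjusted p = 0.00029). In *Tsc2* KO it was 0.12 (SE 0.14, adjusted p = 0.58), and it was 0.00 without the first *Tsc2* KO library. The KOs differed by 1.54 (SE 0.15, adjusted p = 1.5e-05).

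*Prdm14* rose in *Tsc2* KO and was not called in *Nprl2* KO. It was at 14.5 and 10.8 CPM in wild-type, at 13.4 and 9.52 CPM in *Nprl2* KO and at 33.7 and 30.5 CPM in *Tsc2* KO. The rise in *Tsc2* KO was 1.33 on the log2 scale (SE 0.18, adjusted p = 0.00025). In *Nprl2* KO the log2 fold change was -0.17 (SE 0.20, adjusted p = 0.68), and it turned to 0.07 without the first wild-type library and also without the second *Nprl2* KO library. Between the KOs it was 1.49 (SE 0.18, adjusted p = 7.5e-05). Prdm14 is also known from primordial germ cells, of which 4 other markers summed to 55.9 to 77.9 TPM in wild-type and 35.7 to 42.7 TPM in *Tsc2* KO. By the same test none of the 4 was called higher there, *Prdm1* and *Nanos3* were called lower, and the part of such cells in the *Prdm14* result was not tested.

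In *Tsc2* KO, genes of chromosome 1 as a whole stood above the rest. The median log2 fold change of its 747 tested genes was 0.37, with 74.4% of them above 0, against -0.01 over all other chromosomes. *Tfcp2l1* and *Prdm14* both lie on chromosome 1. Their log2 fold changes were 1.72 and 0.96 after subtraction of that median, and its part in the rises was not tested. *Tfcp2l1* had the highest log2 fold change of the 5 genes before the subtraction, and *Tbx3*, at 1.88, after it. The medians were 0.00 for chromosome 8 (*Zfp42*), -0.01 for chromosome 5 (*Tbx3*) and -0.11 for chromosome 12 (*Tcl1*). In *Nprl2* KO the log2 fold changes of the 5 genes after this subtraction were between -1.38 and -0.16. For *Tsc2* KO against *Nprl2* KO the median of chromosome 1 was 0.36. After its subtraction, *Tfcp2l1* was at 2.99 and *Prdm14* at 1.13.

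**Figure D4:**
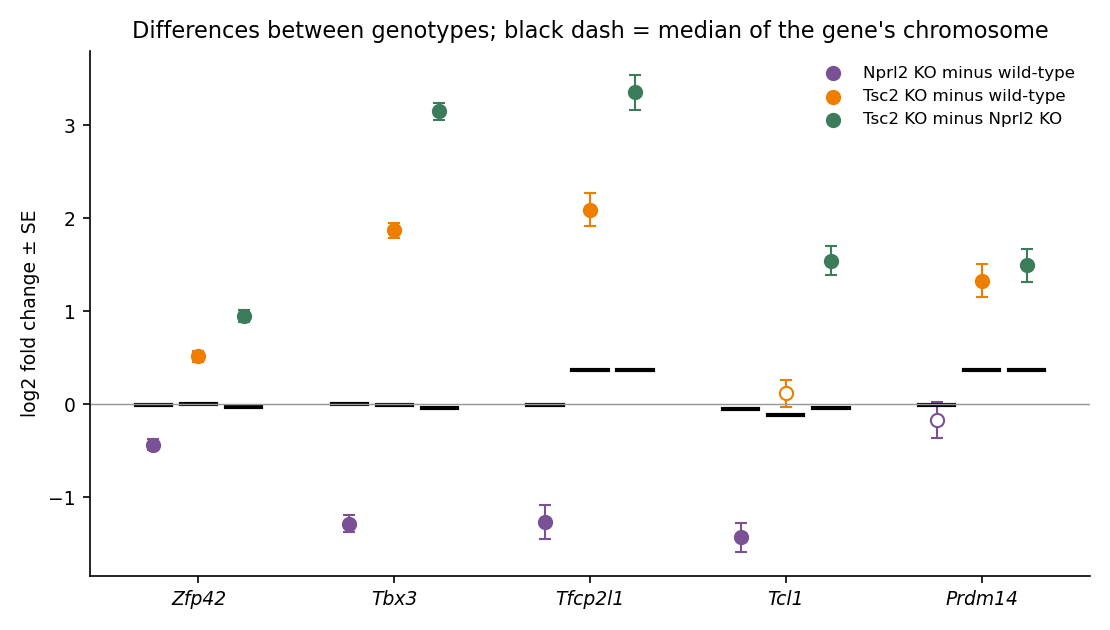
Log2 fold change with its SE for the 5 genes in the 3 comparisons of GFP+ genotypes; filled points passed the test, open points did not, and black dashes are the median log2 fold change of the chromosome that holds the gene. The dashes over *Tfcp2l1* and *Prdm14* sit at 0.37 in *Tsc2* KO against wild-type and near 0 in *Nprl2* KO.

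*Tbx3* has 2 transcripts in the files. NM_198052.2 took 23.4%, 22.2% and 28.2% of the estimated *Tbx3* counts on day 0. In GFP+ cells its shares were 67.4% and 41.7% for wild-type, 65.1% and 79.6% for *Nprl2* KO and 62.0% and 49.3% for *Tsc2* KO, with overlapping genotypes. The rest went to NM_011535.3. All GFP+ shares lay above those of day 0, which belongs to another experiment, so the difference was not tested. The length that kallisto takes off a transcript for fragment size also differed. Its median was 179 bases in every time-course library and 170 to 228 bases in GFP+ libraries. The part of this in the shares was not tested. From day 1 to day 3 *Tbx3* had at most 63 counts per library and the shares swung between 0 and 100%. *Zfp42*, *Tfcp2l1* and *Prdm14* have 1 transcript each in the files. Of the 5 *Tcl1* transcripts, NM_009337.3 took 74.3% ± 4.21 (SD, n = 3) of the counts on day 0.

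**Figure D5:**
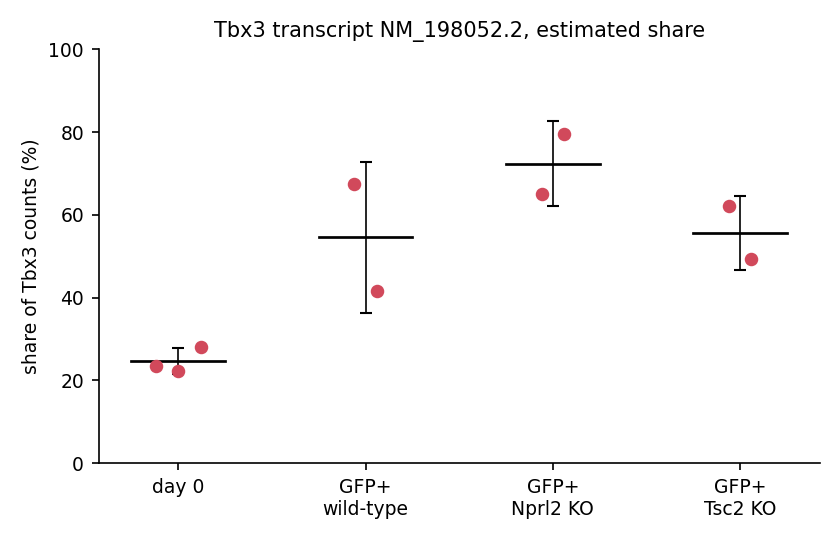
Share of estimated *Tbx3* counts assigned to transcript NM_198052.2 in each library of day 0 and of the GFP+ genotypes, with mean and SD. The day 0 libraries lie between 22.2% and 28.2%, and the GFP+ libraries between 41.7% and 79.6%.

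By the same measure across the 6 GFP+ libraries, among 12217 genes, *Tbx3* and *Tfcp2l1* were nearest to each other (root-mean-square difference 0.17). *Parvb* (0.22) and *Patl2* (0.22) came next for *Tbx3*, and *Fabp3* (0.20) and *Patl2* (0.23) for *Tfcp2l1*. *Zfp42* was nearest to *Eid1* (0.035), *Dennd1b* (0.042) and *Rmnd5b* (0.045). The measure is not scaled to a gene's own spread, so genes that vary little get small distances. Distances of different members are therefore not comparable. Near *Tcl1* were *Cobl* (0.16) and *Mymx* (0.17), and near *Prdm14* were *Myof* (0.09), *Mael* (0.11) and *Lpar1* (0.11). *Mael* and *Dennd1b* lie on chromosome 1, as do *Prdm14* and *Tfcp2l1*. The part of the chromosome 1 shift in *Tsc2* KO in these distances was not tested.

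Among the 16 other naive genes, 5 were lower (3.66% of all genes), 1 higher (2.78% of all genes) and 10 not called in *Nprl2* KO. Their median log2 fold change was -0.30 against 0.00060 over all genes tested. *Esrrb* (-0.94) and *Klf4* (-1.09) fell, and *Dppa3*, a maternal factor that protects DNA methylation, rose (1.10, adjusted p = 0.0071). In *Tsc2* KO, 7 were higher (14.9% of all genes) and 3 lower (14.2% of all genes), with a median of 0.38. The share called lower was not far from that of all genes. *Esrrb* (1.03), *Klf4* (1.15), *Jam2* (1.22) and *Nanog* (0.91) rose, and *Dppa3* fell by 2.16. The change of *Dppa3* was opposite in sign to those of *Tbx3* and *Tfcp2l1* in both KOs. Of the 10 formative genes, 1 was higher in *Nprl2* KO (2.78% of all genes called higher), with a median of 0.40, and 7 were lower in *Tsc2* KO (14.2% of all genes called lower), with a median of -1.66. *Dnmt3b*, a target of Prdm14, was the 1 that rose in *Nprl2* KO (0.45, adjusted p = 0.0044) and fell by 2.12 in *Tsc2* KO (SE 0.08, adjusted p = 1.5e-08).

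Of the 6 Prdm14 targets, 1 was higher in *Nprl2* KO (2.78% of all genes, median log2 fold change of the list 0.04) and 2 were lower in *Tsc2* KO (14.2% of all genes, median of the list -0.70). The other target that fell in *Tsc2* KO was *Fgfr2*, an FGF receptor (-1.83, adjusted p = 8.2e-07). Of the 10 partners and relatives tested, 2 were lower in *Nprl2* KO (3.66% of all genes, median of the list -0.19) and 3 in *Tsc2* KO (14.2% of all genes, median of the list -0.10), and none was higher in either. *Yy1* fell in both KOs, by 0.74 in *Nprl2* KO (SE 0.08, adjusted p = 0.00018) and by 0.89 in *Tsc2* KO (SE 0.08, adjusted p = 7.0e-06), while *Zfp42* moved in opposite directions. *Akt1*, the kinase that Tcl1 binds, fell by 1.28 in *Tsc2* KO (SE 0.12, adjusted p = 1.1e-05) and was not called in *Nprl2* KO (-0.33, adjusted p = 0.10). *Prdm1* was lower in both (-0.88 and -1.27). Of the 10 inputs, *Lifr*, the LIF receptor, was the 1 called in *Nprl2* KO (-0.67, adjusted p = 0.0043). There 3.66% of all genes were called lower, and the median of the list was -0.13. In *Tsc2* KO, *Stat3* (0.54) and *Jak1* (0.33) were higher and *Tcf7l1* (-0.33) and *Il6st* (-0.24) were lower, with a median of -0.05 over the list. These 2 higher and 2 lower of 10 were not far from the shares of all genes, 14.9% called higher and 14.2% called lower.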

How the data were processed

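Per the labels, RNA was extracted with a column kit and sequenced on Illumina instruments. For the GFP+ libraries the methods name a stranded mRNA kit and paired-end reads. The submitters' processing notes name kallisto 0.42.1, DESeq2 and mm10. For each library the authors deposited estimated counts per RefSeq transcript and the TPM that kallisto derives from them, neither normalized between libraries, and reads shared by similar transcripts were divided by kallisto. They also deposited a table of TPM per gene. Of its values above a low cutoff, for genes with transcript sums here, 99.7% in each library matched the sums of that library. The tolerance was 0.001 TPM plus 0.001 of the value. The *Tcl1* row of that table counts 2 of the 5 transcripts a second time in all 18 libraries. This adds up to 5.99 TPM, so TPM here are sums with each transcript once. Their DESeq2 tables of each KO against wild-type hold fold changes and p values and were not used.

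Of 34079 transcripts, 33709 were assigned to genes by the RefSeq table of GRCm38.p6 and 196 by GENCODE M21, and 174 were left out. Transcripts without a gene held 1.65% to 3.57% of counts. Estimated counts were summed for 24296 genes and rounded. edgeR 4.0.16 in R 4.3.3 was used with TMM, its low-count filter, robust quasi-likelihood fits and a threshold of 0.05, with the 12 time-course libraries in 1 fit and the 6 GFP+ libraries in another. CPM are on TMM-scaled totals. An SE is the absolute log2 fold change divided by the root of F. On simulated counts with 50 genes per fold size, 100% of 2-fold changes were recovered for day 1 against day 0 (14068 genes) and 98% for *Nprl2* KO against wild-type (13499 genes). Of 1.5-fold changes, 98% and 66% were recovered. Every simulated gene had the same dispersion, and only genes above a set mean level were changed. These shares therefore do not cover genes near the floor or with a wider spread between libraries. The alternatives were DESeq2 1.42.0, limma 3.58.1 on log2(TPM + 1), upper-quartile normalization, no filter, a minimum of 10 counts in each library, a replicate block, pairs of groups fitted alone, each library left out, subtraction of the chromosome median, and transcript shares from TPM. Exact intervals and permutation tests used scipy 1.17.1. The 5 genes and the gene lists were chosen with earlier results of these data known, so no list is independent support. The genes named are the 5, a few of each list, and the 3 nearest in course, of which 1 for *Tcl1* is not reported here.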

Additional observations from a re-analysis of the deposited data

How the results depend on the processing

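The calls of the 5 genes were the same under DESeq2, limma, upper-quartile normalization and no filter in all 8 comparisons. With at least 10 counts in every library, 3 genes in place of 5 were called lower on day 1, on day 2 against day 1, and on days 2 and 3 against day 0, because *Tcl1* and *Prdm14* were then not tested. With each pair of groups fitted alone, 4 were lower on day 2 against day 1, since *Prdm14* was not tested. With a library left out, 3 to 4 genes were called lower in *Nprl2* KO, and every other count of the 5 genes stayed as given. Values that changed sign belonged to differences that had not passed the test: *Tbx3* on day 3 against day 2 (0.17 without the third library of day 2, 0.04 without the second of day 3; -0.33 to 0.17 over all libraries left out), *Prdm14* in *Nprl2* KO (0.07 without the first wild-type library or the second *Nprl2* KO library; -0.44 to 0.071) and *Tcl1* in *Tsc2* KO (-0.0030 without the first *Tsc2* KO library; up to 0.24). The cause was not tested.

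Over all genes, leaving out 1 library gave 339 (without the second *Nprl2* KO library) to 783 calls in *Nprl2* KO against 883, 2225 (without the second *Tsc2* KO library) to 3974 in *Tsc2* KO against 3996, 2974 to 4791 between the KOs against 4692, and 2969 (without the second library of day 2) to 5055 on day 3 against day 2, against 4525. Without a filter 1667 genes were called in *Nprl2* KO. DESeq2 called 685 and limma 596.

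Libraries share replicate numbers across groups. Deviations of same-numbered libraries correlated at 0.233 to 0.436 in GFP+ cells and at -0.232 to 0.272 in the time course. Differently numbered libraries gave -0.398 to 0.365 in the time course. In GFP+ cells they gave the same values with the sign reversed, which 2 libraries per group force. The labels do not say what a number marks, so it was not taken as a pairing. With the replicate block, 2072 genes were called in *Nprl2* KO, 5255 in *Tsc2* KO and 5846 between the KOs, and the calls of the 5 genes did not change in any comparison. Depth limits *Tcl1* and *Prdm14* on days 2 and 3, where they had at most 6 counts per library.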
